A study of Mus musculus with 5 samples.

Results

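A set of 10 genes best known from blood vessel endothelium was followed in single bone marrow cells: Fgd5, Cldn5, Procr, Tgm2, Esam, Eng, Tek, Tie1, Emcn and Cdh5. All 10 were among the 15287 genes of the deposited table of unique molecular identifiers (UMIs, counts of captured mRNA molecules). They were chosen with their levels in these libraries known, so the difference in level between the sorted populations is described here without a test. The cells came from mice of 20 weeks of age with no treatment recorded, strain Fgd5CreERT2/+Rosa26Tomato/+, whose Tomato allele sits behind a stop cassette that Cre removes. In this strain 1 Fgd5 allele carries ZsGreen and CreERT2, so ZsGreen fluorescence reports activity of the Fgd5 locus. Lin-kit+ cells (lineage negative, CD45.2+, c-kit+) are a mixture of progenitors and gave 3 libraries, called a, b and c, with 11581 cells. Fgd5+ cells were Lin-kit+ cells with ZsGreen and gave 1 library of 793 cells. HSC-Fgd5+ cells also had to carry the stem cell phenotype Sca1+, CD150+ and CD48 negative, and gave 1 library of 519 cells. The CD45.2+ gate was common to all 5 libraries and favours blood cells over vessel cells.

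The barcode suffixes of the table were matched to the populations by cell number, because the sample labels disagree on which ZsGreen library had the stem cell gate. Libraries a, b and c could not be tied to single sample labels, and the number of mice behind each library was not given, so n counts libraries and any spread may be technical. Totals ran from 2166655 UMIs (HSC-Fgd5+) to 36080242 UMIs (Lin-kit+ c), with medians of 3721 to 6567 UMIs per cell. At most 31 barcodes were shared between a pair of libraries, at most 0.771% of the smaller one. In the HSC-Fgd5+ library 405 of 519 cells passed a filter of at least 1000 UMIs and under 10% mitochondrial UMIs, and over all libraries 12699 of 12893 cells did.

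Blood stem cells and endothelium arise from a common embryonic precursor and share part of their surface. TIE receptors (Tek and Tie1) answer angiopoietins and hold vessels and the stem cell niche in a quiet state, endoglin (Eng) is a co-receptor for TGF-beta and BMP ligands, and Procr binds protein C in anticoagulant signalling and is a standard surface marker of mouse hematopoietic stem cells (HSCs). Cldn5, Esam and Cdh5 join endothelial cells to each other, Cdh5 (VE-cadherin) being the most widely used endothelial marker.

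Fgd5, a guanine nucleotide exchange factor for Cdc42 and the gene that drives the reporter, is the check on the sort. It stood at 1.10, 1.71 and 1.25 CPM (UMIs per 1000000 UMIs of the library) in Lin-kit+ libraries a, b and c, and at 6.0 CPM in the Fgd5+ and 10.2 CPM in the HSC-Fgd5+ library. Both reporter-positive libraries lay above all 3 Lin-kit+ libraries, with a ratio of group means of 5.97. A UMI of Fgd5 was found in 3.15% of Fgd5+ cells (95% Wilson interval, 2.14 to 4.61%) and 4.05% of HSC-Fgd5+ cells (2.66 to 6.11%), although every one of these cells was sorted on activity of the locus. In the Lin-kit+ libraries the share was 0.716 to 0.822%, close to the 0.738% of neutrophil-like cells at a median of 5497.5 UMIs, and is read as background. How reads of the knock-in allele were counted was not measured, and 0 genes of the table are named for the reporter. Intervals here and below cover counting error only.

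The receptor Tek (TIE2) had 0.50, 0.535 and 0.998 CPM in the Lin-kit+ libraries, against 10.6 CPM in Fgd5+ and 8.77 CPM in HSC-Fgd5+ cells. Its orphan partner Tie1 had 1.60, 2.14 and 2.16 CPM against 43.9 and 44.8 CPM. Both genes were thus low in every Lin-kit+ library and higher in both reporter-positive ones, by 14.3 times for Tek and 22.5 times for Tie1. The co-receptor endoglin was also detected in every Lin-kit+ library. Eng stood at 15.8, 14.1 and 12.4 CPM in Lin-kit+ a, b and c, at 126 CPM in Fgd5+ and at 114 CPM in HSC-Fgd5+ cells, a ratio of 8.52 without overlap between the groups.

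Procr had 2.1, 2.3 and 2.80 CPM in the Lin-kit+ libraries, 122 CPM in Fgd5+ and 145 CPM in HSC-Fgd5+ cells. Tgm2, a transglutaminase that cross-links proteins and also binds GTP, had 0.90, 0.963 and 0.748 CPM against 127 and 124 CPM. These were ratios of 55.5 and 144, the latter the highest of the 8 genes with UMIs in every library. Emcn, a sialomucin of venous and capillary endothelium, had 1.40, 1.71 and 1.83 CPM in the Lin-kit+ libraries against 36.0 and 33.7 CPM, a ratio of 21.1.

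The 3 junction genes behaved differently from each other. Esam, an adhesion molecule of tight junctions and platelets, had 2.50, 2.25 and 2.47 CPM in the Lin-kit+ libraries against 105 and 114 CPM, a ratio of 45.5. Cldn5, the main claudin of the blood-brain barrier, had 0 UMIs in 11581 Lin-kit+ cells, which allows a share of up to 0.0259% of cells with a UMI and sets no limit on cells that express it, and 71 and 60 UMIs (17.0 and 27.7 CPM) in the Fgd5+ and HSC-Fgd5+ libraries. Set against a floor of 3 UMIs over the Lin-kit+ group, Cldn5 was at least 446-fold higher in the reporter-positive cells. Without library c, which holds most of the Lin-kit+ depth, that bound was 198-fold. Cdh5 had 0, 1 and 1 UMIs in the Lin-kit+ libraries, 1 UMI in Fgd5+ and 0 in HSC-Fgd5+ cells, so no fold is given.

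**Figure D1:**
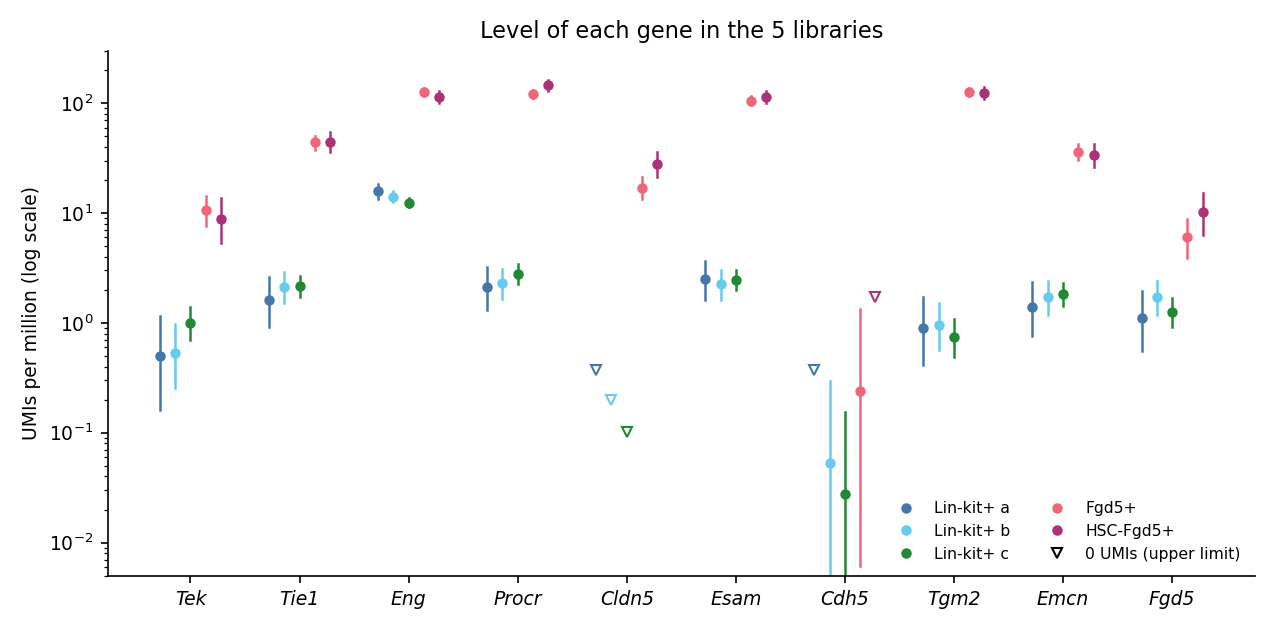
Each point is 1 gene in 1 library, in CPM on a log axis, with the exact 95% Poisson interval as a line. Open triangles mark 0 UMIs and stand at the upper limit of that interval. For every gene but Cdh5 the points of Fgd5+ and HSC-Fgd5+ lie above all 3 Lin-kit+ points.

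In 9 of the 10 genes both reporter-positive libraries lay above all 3 Lin-kit+ libraries, as they did for 55.4% of the 15287 genes in the table. The same 9 passed the filter on low counts and were past an adjusted p of 0.05 as higher in edgeR's quasi-likelihood fit, as were 32.7% of 11991 genes tested. Because the genes were chosen from this contrast, nothing is read from these counts. With the cells that passed the filter alone, the ratios ran from 5.47 for Fgd5 to 142 for Tgm2. UMIs were counted at the 3′ end and not divided by transcript length, so levels are compared between libraries and cell classes and not between genes.

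Between the gates, the ratio of HSC-Fgd5+ over Fgd5+ rests on 1 library each and was not tested. Cldn5 had a ratio of 1.63 (exact 95% interval, 1.13 to 2.33) and Procr 1.19 (1.03 to 1.37). Among cells that passed the filter, Cldn5 stood at 17.1 CPM in Fgd5+ and 29.8 CPM in HSC-Fgd5+ cells, and Procr at 122 and 145 CPM. The interval for Cldn5 treats UMIs as independent, although 61.7% of its 60 UMIs in HSC-Fgd5+ lay in 5 cells. The share of cells with Cldn5 was 3.66% in HSC-Fgd5+ and 4.92% in Fgd5+ cells, at unequal depth. With cells thinned to 1000 UMIs each, the expected share was 2.096% in HSC-Fgd5+ and 1.608% in Fgd5+ cells. At 2000 UMIs, which 383 HSC-Fgd5+ and 766 Fgd5+ cells reached, it was 2.461 and 2.76%. The order of the shares thus changed with depth, and none is read from them. For the other 7 genes with at least 40 UMIs in these libraries the interval held 1, from 0.831 (0.458 to 1.45) for Tek to 1.69 (0.910 to 3.13) for Fgd5. Over all 9058 genes with at least 40 UMIs there, 6.25% had an interval above 1 and 7.49% an interval below 1. The other genes thus differed by less than counting error between these 2 libraries, with room for differences as wide as the intervals. The Fgd5+ library was not gated on Sca1, CD150 and CD48, so it can hold cells with the stem cell phenotype. In the clusters below, 719 of its cells fell in the same HSC-like cluster as 481 HSC-Fgd5+ cells. It does not stand for cells that lack that phenotype.

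Of the 10 genes, 7 matched an entry of the RefSeq promoter table (GRCm38.p6), and Tgm2, Esam and Cdh5 are given by name only. The promoters of 5 genes are shown because these genes were high in the same libraries while Cldn5 alone had no UMI in the progenitors. Each run is written 5′ to 3′ on the gene's strand, which is the plus strand for all 5, and ends at the last base before the first exon annotated in RefSeq or GENCODE M21, whichever starts further upstream. The windows are chr4:94739039-94739288 for Tek, chr2:32646345-32646594 for Eng, chr2:155750967-155751116 for Procr, chr16:18776597-18776846 for Cldn5 and chr3:137340828-137341066 for Emcn. Capitals mark GGAA or its reverse complement TTCC, the core of sites bound by ETS factors such as Erg and Fli1.
Tek: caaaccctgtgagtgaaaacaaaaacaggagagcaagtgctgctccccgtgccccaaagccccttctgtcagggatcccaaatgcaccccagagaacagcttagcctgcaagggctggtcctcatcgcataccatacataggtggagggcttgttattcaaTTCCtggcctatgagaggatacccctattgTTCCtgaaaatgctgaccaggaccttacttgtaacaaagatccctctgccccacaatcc
Eng: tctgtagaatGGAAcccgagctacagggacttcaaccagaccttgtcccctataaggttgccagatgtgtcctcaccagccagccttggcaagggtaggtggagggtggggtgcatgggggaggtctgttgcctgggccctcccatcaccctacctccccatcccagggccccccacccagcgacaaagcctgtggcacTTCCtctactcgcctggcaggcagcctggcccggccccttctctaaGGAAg
Procr: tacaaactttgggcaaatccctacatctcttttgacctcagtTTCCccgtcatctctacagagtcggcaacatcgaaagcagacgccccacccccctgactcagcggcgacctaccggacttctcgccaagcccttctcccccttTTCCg
Cldn5: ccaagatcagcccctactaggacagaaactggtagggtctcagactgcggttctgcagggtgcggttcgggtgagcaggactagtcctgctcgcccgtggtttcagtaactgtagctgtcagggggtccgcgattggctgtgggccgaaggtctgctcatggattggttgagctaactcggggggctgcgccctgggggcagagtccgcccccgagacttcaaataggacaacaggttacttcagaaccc
Emcn: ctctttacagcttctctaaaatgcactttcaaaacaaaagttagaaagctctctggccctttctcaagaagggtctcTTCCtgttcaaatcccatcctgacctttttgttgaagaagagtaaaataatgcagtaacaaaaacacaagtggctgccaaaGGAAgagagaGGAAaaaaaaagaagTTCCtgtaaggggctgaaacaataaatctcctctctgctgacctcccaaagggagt
Both strands were searched over the 250 bases before the RefSeq start, in which GGAA matches do not overlap each other. Tie1 held 7 matches there, a number that 3.82% of the 32851 promoters of the table reached. Emcn held 4, Eng and Procr 3 each, and Tek and Fgd5 2 each, beside a median of 3 over all promoters. Cldn5 held none, as did 6.55% of all promoters. GATA or its reverse complement TATC, the core of GATA factor sites, was found once in Tek and in none of the other 6, whereas 53.6% of all promoters held it. A match is a description of letters in this window and not a bound site.

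Of 1312 reporter-positive cells, 1157 (88.2%) had a UMI of at least 1 of the 10 genes, 841 (64.1%) of at least 2, 440 (33.5%) of at least 3 and 67 of at least 5. Procr was detected in 42.7% of Fgd5+ cells and 38.9% of HSC-Fgd5+ cells, Tgm2 in 46.0 and 37.8%, Eng in 44.9 and 35.6%, and Esam in 37.6 and 32.9%. Tie1 followed with 20.7 and 17.1% and Emcn with 16.5 and 12.3%, and Tek and Cldn5 each with 4.92 and 3.66% of cells. All of these lay far above the share in neutrophil-like cells of the Lin-kit+ libraries, which at a median of 5497.5 UMIs ran from 0% for Cldn5 and 0.204% for Procr to 0.916% for Tie1 and 1.12% for Eng. The medians of the reporter-positive libraries were lower, at 4346 and 3721 UMIs. Thinned to 1000 UMIs per cell, which leaves out 8 cells of HSC-Fgd5+ and 8 of Lin-kit+ b, Procr was expected in 13 and 14.9% of reporter-positive cells against 0.246 to 0.413% in the Lin-kit+ libraries. The lower unthinned share of Procr in HSC-Fgd5+ cells thus went with their lower depth, and no order is read from it.

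Whether the 10 genes marked the same cells was asked of each of their 45 pairs. The number of cells with a UMI of both genes was set beside the number that independent detection gives from each gene's share of cells and each cell's UMI total. In the reporter-positive cells 33 pairs had at least 5 such cells expected, and for none of them did the exact interval of observed over expected lie above or below 1. The median ratio was 0.969, and the pairs ran from 0.685 for Fgd5 with Emcn (6 cells, 8.76 expected) to 1.2 for Cldn5 with Procr (35 cells, 29.2 expected). Procr and Eng shared 264 cells with 259 expected, and Tek and Tie1, the receptor pair, 16 cells with 14.5 expected. The 401 cells with exactly 2 of the genes were more than the 343 expected, and the 67 cells with at least 5 were fewer than the 75.8 expected. At the top, 18 cells held at least 6 genes with 19.1 expected, and 4 held 7 with 2.72 expected. Such totals cannot show whether a handful of cells differed from the rest. Cells without any of the genes had a median of 2937 UMIs and cells with 5 of them 6822 UMIs.

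**Figure D2:**
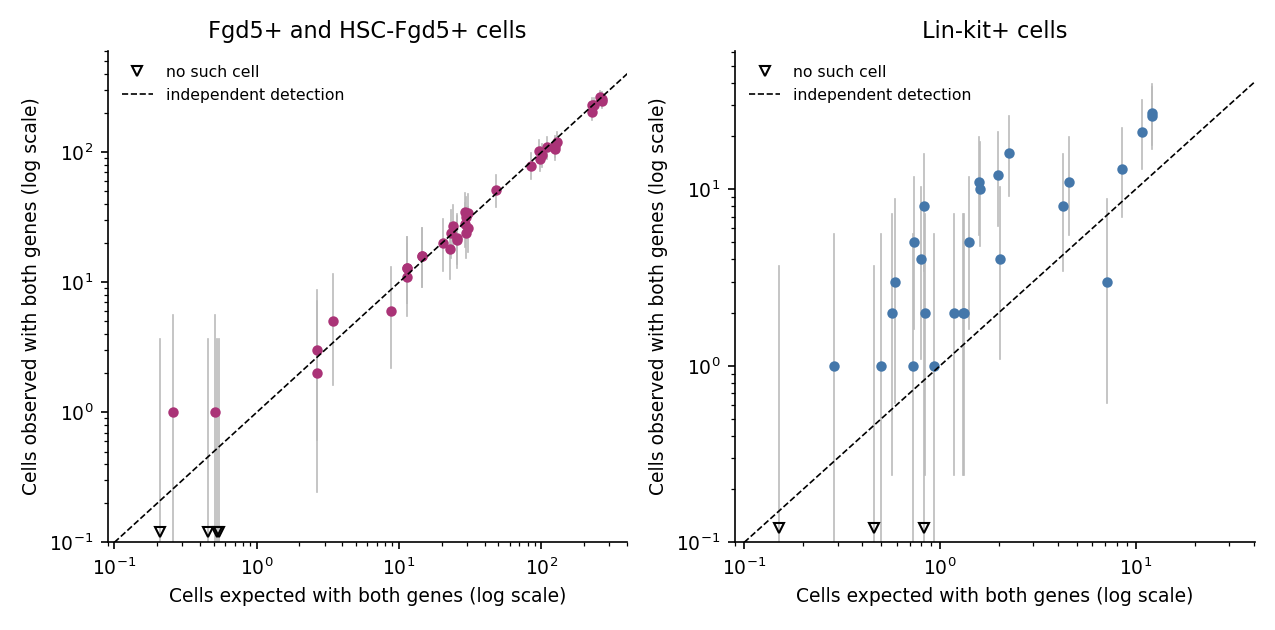
Each point is a pair of the 10 genes with at least 0.1 cells expected, with the cells expected to hold a UMI of both on the x axis and the cells observed on the y axis, both on log scales. Grey lines are exact 95% Poisson intervals, and triangles are pairs seen together in no cell. The points of the reporter-positive cells follow the dashed line of independent detection, and most points of the Lin-kit+ cells lie above it.

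In the Lin-kit+ libraries 156 cells held at least 2 of the genes, where 77.1 were expected. Summed over pairs, a cell being counted once for each pair it held, the count was 201 with 82.4 expected, a ratio of 2.44, with 2.0, 2.66 and 2.49 in libraries a, b and c. Of the 5 pairs with at least 5 expected cells, all of which include Eng, 3 had an interval above 1. Eng shared 27 cells with Esam (12.1 expected), 26 with Procr (12.1 expected) and 21 with Tie1 (10.7 expected). The intervals of the other 2 held 1, with 13 cells for Eng and Emcn (8.52 expected) and 3 for Eng and Fgd5 (7.16 expected, ratio 0.419). Among pairs with fewer expected cells, Procr and Esam shared 16 with 2.26 expected. Within lymphoid-primed multipotent-like cells the summed ratio was 1.44 and within megakaryocyte-like cells 1.3. Only 4 and 2 pairs there had at least 5 expected cells, with median ratios of 1.21 and 1.52. None of their intervals lay above 1, which so few pairs and small counts could hardly have shown. The summed ratio was thus lower within these classes than over all Lin-kit+ cells, and the part of cell class in the co-detection was not tested.

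Cldn5 was the exception in how its UMIs lay over cells. In the HSC-Fgd5+ library its 60 UMIs came from 19 cells, with up to 12 UMIs in 1 cell, and 61.7% of them lay in the 5 richest cells. In the Fgd5+ library 71 UMIs came from 39 cells, with up to 6 in 1 cell. The index of dispersion over cells, which is 1 for Poisson sampling at each cell's depth, was 7.26 and 2.74 for Cldn5, against 1.02 to 1.60 for the other 8 genes where at least 20 UMIs allowed it. Tek, found in the same numbers of cells (39 and 19), had no more than 3 UMIs in any of them. Part of the Cldn5 signal thus lay in a few cells with several molecules each, while the other genes lay closer to Poisson sampling.

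**Figure D3:**
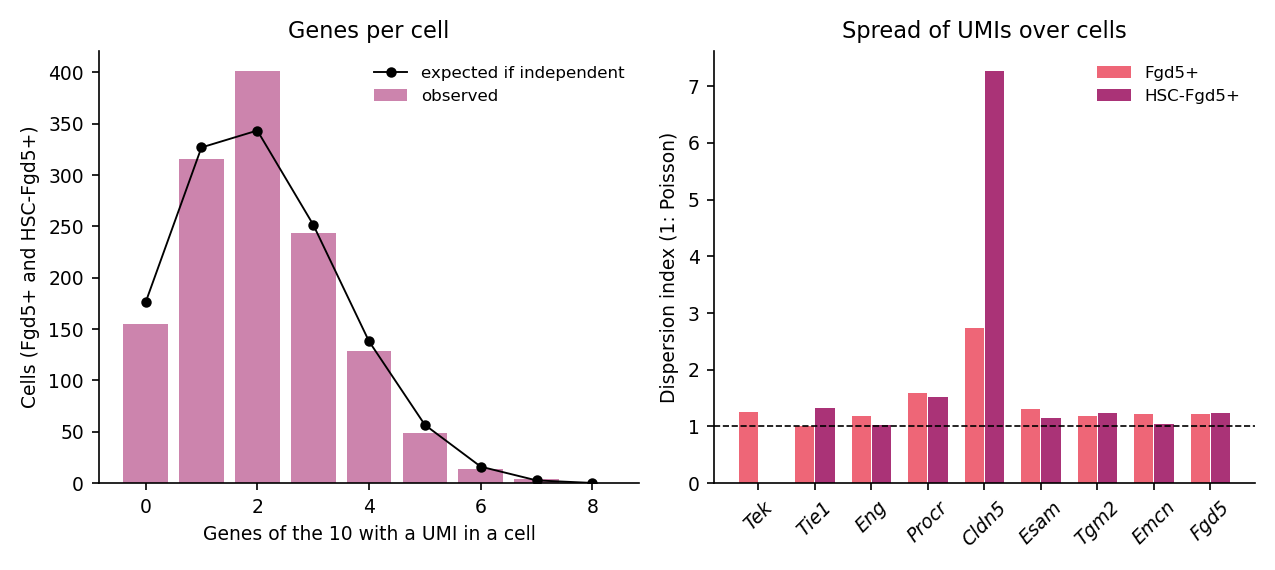
The left panel shows the number of reporter-positive cells with 0 to 8 of the 10 genes (bars) and the number expected with independent detection (points). The right panel shows the index of dispersion of each gene's UMIs over cells in the Fgd5+ and HSC-Fgd5+ libraries, with 1 (dashed) for Poisson sampling. Tek has no bar for HSC-Fgd5+, where it had 19 UMIs. The bars for Cldn5 stand above those of all other genes.

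The 58 reporter-positive cells with a Cldn5 UMI were compared with the 1254 without. Their median depth was 4368 against 4157 UMIs. Tgm2 stood at 209 CPM (161 to 267) in them against 122 CPM (113 to 131), and Procr at 182 CPM (137 to 238) against 127 CPM (118 to 136). Esam was at 109 CPM (75.4 to 154) against 108 CPM (99.9 to 117). The blood cell genes Ptprc (CD45) and Kit were at 113 and 163 CPM in cells with Cldn5, against 90.2 and 142 CPM in those without. Of the 58 cells, 56 lay in the HSC-like cluster and 2 in clusters named megakaryocyte-like.

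A list of 24 genes used as endothelial markers served to look for vessel cells, and 16 of them were in the table. Not all of the 16 were specific here, since Bmx had 35, 72 and 132 UMIs in the Lin-kit+ libraries. Ecscr was found in 14.6 and 15.2% of Fgd5+ and HSC-Fgd5+ cells, and these shares alone cannot tell whether it was specific. Kdr (VEGF receptor 2) had 30 UMIs in Fgd5+ and 16 in HSC-Fgd5+ cells (7.20 and 7.38 CPM), and 1, 8 and 7 UMIs in the Lin-kit+ libraries. Clec14a had 30 and 13 UMIs against 1, 0 and 0, and Ecscr 127 and 89 UMIs against 2, 11 and 13. Sox18 had 7 and 1 UMIs against none, Tmem100 10 and 2 against 0, 1 and 6, Apln 8 and 1 against 1, 7 and 6, and Fabp4 3 and 2 against 2, 3 and 5. Flt1 had 1 and 0 UMIs against 10, 17 and 31, and Plvap 0 and 1 against 6, 8 and 13, so both had more UMIs in the Lin-kit+ libraries. Cdh5 had 1 and 0 UMIs in the reporter-positive libraries, and Lyve1, Mmrn2 and Gja5 none. A UMI of at least 2 of the 16 markers was found in 35 of 1312 reporter-positive cells and in 8 of 11581 Lin-kit+ cells. With Ecscr and Bmx left out, a choice made after their values were seen, the numbers were 4 and 0. Ecscr was rare in Lin-kit+ cells, so leaving it out presumes that reporter-positive cells holding it are blood cells. The fall from 35 to 4 thus cannot show whether vessel cells were present. Numbers expected with independent detection were not computed for these markers. One cell, in the Fgd5+ library, held 3 of the 16 (Kdr, Clec14a and Ecscr) together with Procr, Esam, Eng, Tek and Emcn. That cell had 8187 UMIs with none of Ptprc or Kit and lay in the HSC-like cluster. It is 1 of 793 cells in its library. Ptprc was found in 33.7% and Kit in 46.9% of the 754 Fgd5+ cells without a Cldn5 UMI. Those cells had a median of 4326 UMIs, so the shares are likely too low for a cell of 8187 UMIs. Nothing is read from the absence of Ptprc and Kit in 1 cell, and whether it was a vessel cell was not tested. Clusters were made without the 10 genes, and none of the 20 had endothelial markers among its 10 leading genes.

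Among Lin-kit+ cells, the genes fell into different progenitor classes, which are described without a test because clusters and levels come from the same cells. Outside the HSC-like cluster, Procr and Emcn were highest in lymphoid-primed multipotent-like cells (7.18% of Lin-kit+ cells, led by Dntt, Wfdc17 and Flt3). Procr stood at 20.4, 27.6 and 34.9 CPM in that class in libraries a, b and c, and at 6.28 ± 1.86 CPM (SD, n = 3) in megakaryocyte-like cells. These lymphoid-primed cells held 52.1% of all Lin-kit+ UMIs of Procr and 49.1% of those of Emcn (18.5 ± 4.88 CPM, n = 3). Neither gene had a UMI in 883 erythroid-like cells. With coarser clusters (Leiden resolution 0.5) the levels in the lymphoid-primed class were 14.9 CPM for Procr and 11.7 CPM for Emcn.

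Among the classes outside the HSC-like cluster, Esam and Tie1 were highest in megakaryocyte-like cells, led by Pf4. Esam stood at 26.5, 23.8 and 28.4 CPM there in libraries a, b and c and at 18.2 ± 2.13 CPM in lymphoid-primed cells. Tie1 stood at 12.0 ± 4.68 CPM in megakaryocyte-like and 5.13 ± 3.40 CPM in lymphoid-primed cells. The order of these classes held beyond the spread between libraries for Esam in these clusters, while the ranges of Tie1 overlapped, with 6.63 to 14.9 CPM against 2.26 to 8.89 CPM. Tek had 0, 9.25 and 12.8 CPM in the megakaryocyte-like cells of a, b and c and 4.52 ± 2.23 CPM in erythroid-like cells. Clustering with the 10 genes kept in brought Esam to 15.7 CPM in megakaryocyte-like and 14.0 CPM in lymphoid-primed cells, and Tie1 to 7.04 and 6.40 CPM, so the order of these classes depends on the clusters. Leaving out library c took Tek in megakaryocyte-like cells from 7.35 to 4.63 CPM, and leaving out a took it to 11 CPM. Eng was broad and, outside the HSC-like cluster, highest in 3 named classes. It had 45.8 ± 5.63 CPM in erythroid-like, 37.9 ± 2.47 CPM in lymphoid-primed and 36.4 ± 2.65 CPM in megakaryocyte-like cells, against 2.13 ± 0.234 CPM in neutrophil-like cells. The unnamed cluster led by Prg2 had Eng at 26.4 CPM. Unnamed clusters held 26.9% of its Lin-kit+ UMIs and monocyte or dendritic-like cells 19.7%. Outside the HSC-like cluster Tgm2 was at most 6.99 ± 0.827 CPM in megakaryocyte-like cells and 4.16 ± 0.859 CPM in lymphoid-primed cells, and Cldn5 had no UMI in any class.

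**Figure D4:**
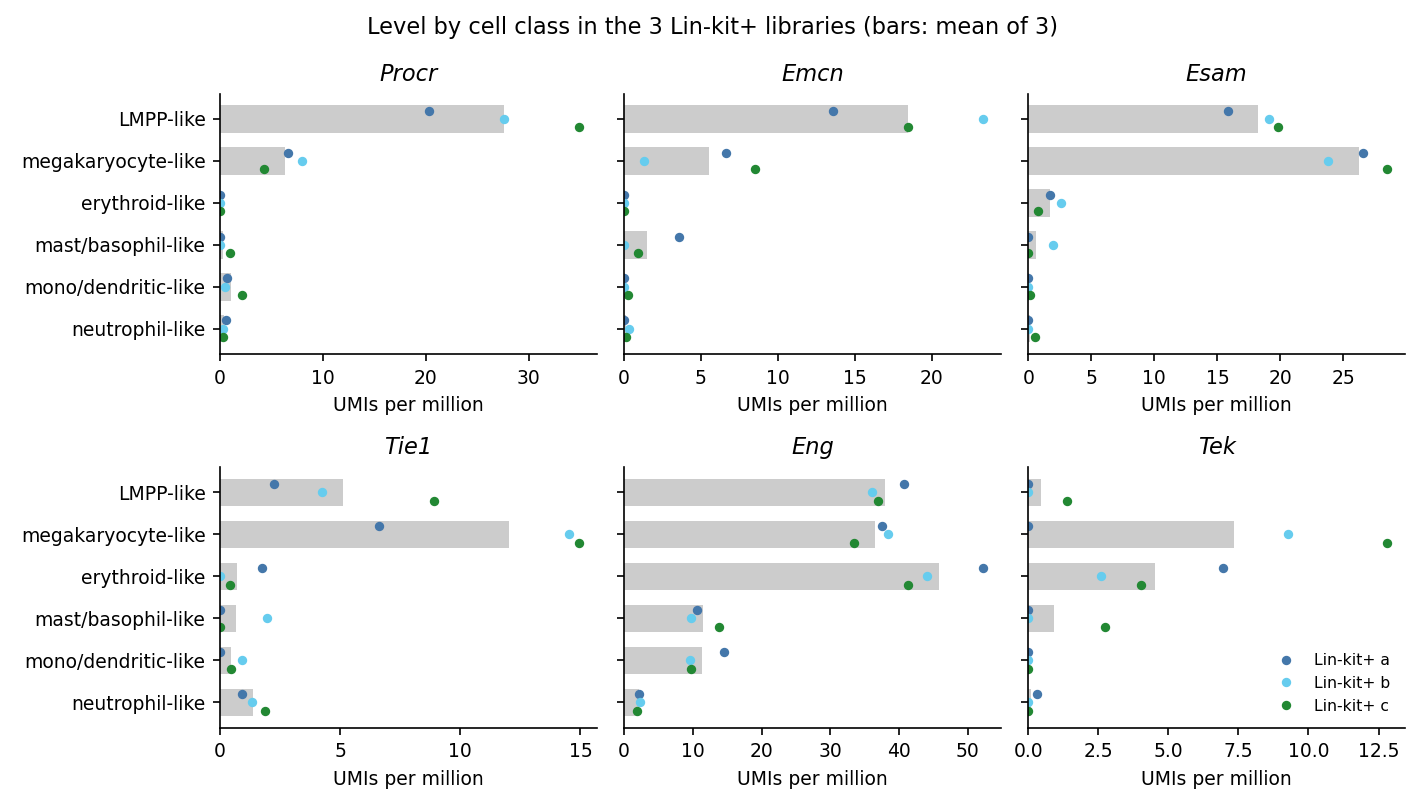
Bars show the mean level over the 3 Lin-kit+ libraries in each cell class, in CPM, and points the single libraries; each panel has its own axis. The HSC-like cluster, with 31 Lin-kit+ cells, is left out. Among the classes shown, Procr and Emcn are highest in lymphoid-primed multipotent-like (LMPP-like) cells, and Esam and Tie1 in megakaryocyte-like cells. Finer clusters divide the LMPP-like class, and Procr is low in its part led by Dntt. Eng is also high in erythroid-like cells.

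A finer clustering divided the lymphoid-primed class further. A cluster of 495 Lin-kit+ cells led by Wfdc17, Ctla2a and Gm5111 held Procr at 55.1 CPM (43.9 to 68.3), Esam at 36.5 CPM (27.5 to 47.5) and Emcn at 27.9 CPM (20.1 to 37.7). A cluster of 400 cells led by Dntt, Cox6a2 and Wfdc17, with Flt3 and Il7r also among its 10 leading genes, held Procr at 1.67 CPM (0.345 to 4.89), Esam at 0.558 CPM (0.0141 to 3.11) and Emcn at 10.0 CPM (5.95 to 15.9). The remaining cluster of the class, 282 cells led by Wfdc17, Cd34 and Ccl9, held Procr at 7.61 CPM (3.48 to 14.5), Esam at 0.846 CPM (0.0214 to 4.71) and Emcn at 8.46 CPM (4.06 to 15.6). Of the 3 clusters, the first had the highest levels of all these genes. That first cluster was named with Dntt and Flt3 among its markers, but neither was among its 10 leading genes. The level of Procr in the class as a whole thus does not stand for its cells led by Dntt. Erythroid-like cells divided likewise, with Tek at 10.0 CPM in 577 cells led by Gm15915 and no UMI of Tek in 293 cells led by Car1, while Eng was at 54.1 and 36.9 CPM.

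The HSC-like cluster, named from Hlf, Mecom, Ly6a, Meis1, Mllt3, Slamf1, Hoxb5 and Ctsf, held 1200 of the 1312 reporter-positive cells and 31 Lin-kit+ cells (9, 11 and 11 in a, b and c). In those 31 cells Esam stood at 139 CPM (71.7 to 242), Eng at 104 CPM (47.6 to 198), Tie1 at 92.5 CPM (39.9 to 182) and Procr and Tgm2 at 57.8 CPM each (18.8 to 135). The reporter-positive cells of the cluster had Esam at 116 CPM (107 to 126) and Procr at 149 CPM (139 to 160). Fgd5, Cldn5 and Tek had no UMI in the 31 cells, which at this depth allows up to 42.7 CPM and so says nothing of a difference. A further 97 reporter-positive cells lay in a cluster of 429 cells of all libraries that was named megakaryocyte-like, with Pf4 and the division gene Cenpf among its leading genes. The name did not hold for these cells in finer clusters (resolution 2), where the 2 megakaryocyte-like clusters held 2 and 1 reporter-positive cells. An unnamed cluster there, supported by 7 HSC markers, held 111 cells of Fgd5+ and 53 of HSC-Fgd5+. Procr stood at 36.0 CPM (25.1 to 50.1) in these 97 cells and Tgm2 at 67.9 CPM (52.5 to 86.4), against 149 and 139 CPM in the HSC-like cluster, and Esam at 75.1 CPM (58.8 to 94.4) against 116 CPM. The median depth of reporter-positive cells in clusters named megakaryocyte-like was 9519.5 UMIs against 4009 in the HSC-like cluster, and the share of cells with Esam was higher in them (54.1 against 34.7%) although the level was lower, so the shares are not read.

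Over the 17 clusters with at least 50 Lin-kit+ cells, the genes most like single members were taken by Pearson correlation of log2(CPM + 1). Emcn was most like Mecom (r = 0.959), a transcription factor required by HSCs. Tie1 was most like Scarf1 (r = 0.947), an endothelial scavenger receptor. Eng was most like Stat5b (r = 0.954) and Procr most like Irf1 (r = 0.854). Among the members themselves the closest pairs were Esam with Tie1 (r = 0.838) and Procr with Emcn (r = 0.815). The clusters share libraries and differ in depth, so these values describe the 17 points and carry no p.

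The pathways around the 10 genes were taken from 9 lists of 99 further genes, 75 of which were tested. At a Benjamini-Hochberg adjusted p of 0.05 in the quasi-likelihood test of edgeR, 49 of them were higher and 13 lower in the reporter-positive libraries, where 32.7% of all genes tested were higher and 30.4% lower. The median log2 fold change over the 75 was 1.22, beside 0.07 over all genes tested. The p-values rest on the spread within groups of 3 and 2 libraries, which may be technical. The reporter-positive libraries differ in their gate and are not replicates of the same condition, so their spread includes the difference between the gates. The lists were chosen with earlier results of these data known. They include genes already known in stem cells, such as Vwf and Mecom, the latter also a marker that names the HSC-like cluster. Higher calls of such genes in stem cell libraries could be foreseen, so nothing is read from these totals about vascular pathways. Angpt2, Thbd, Icam2, Pecam1, Podxl, Fgd1, Tgm1, Smad6 and Smad7 were named below after their values were seen.

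Of the TIE receptor pathway 3 of 4 tested genes were higher and none lower (median log2 fold change 1.70). Angpt1, the ligand that activates Tek, stood at 18.5, 16.6 and 18.5 CPM in Lin-kit+ a, b and c and at 215 and 209 CPM in Fgd5+ and HSC-Fgd5+ cells (log2 fold change 3.03, SE 0.09, adjusted p = 1.3e-06). Receptor and ligand were thus both higher in the same libraries. Foxo1, which Tek signalling restrains, rose by 2.58 on the log2 scale (SE 0.23, adjusted p = 8.37e-05) and the adaptor Dok2 by 0.53 (SE 0.10, adjusted p = 0.00317). The antagonist Angpt2 had a log2 fold change of 0.82 with an adjusted p of 0.150.

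Of the protein C and thrombin receptor list 3 of 5 tested genes were higher and none lower (median 1.32). The thrombin receptors F2r and F2rl3 rose by 1.60 (SE 0.19, adjusted p = 0.000323) and 2.21 (SE 0.17, adjusted p = 3.82e-05), and the protein C cofactor Pros1 by 1.32 (SE 0.24, adjusted p = 0.00255). Thbd, the thrombomodulin that works beside Procr on endothelium, had a log2 fold change of 0.08 with an adjusted p of 0.841.

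Junction genes were the list with most calls, 12 of 14 higher and 1 lower (median 1.67). The junctional adhesion molecules Jam2, Jam3 and F11r rose by 5.92 (SE 0.28), 5.95 (SE 0.28) and 4.92 (SE 0.36). Jam3 had 6, 7 and 8 UMIs in Lin-kit+ a, b and c and 122 and 69 UMIs in Fgd5+ and HSC-Fgd5+ cells. Their adjusted p-values were 6.1e-06 for Jam2 and Jam3 and 3.32e-05 for F11r. Icam2 was the gene that fell, by 0.76 on the log2 scale, and Pecam1 (CD31) had a log2 fold change of -0.35 with an adjusted p of 0.0678.

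The endoglin list gave 8 higher, 3 lower and 5 not called of 16 tested (median 0.53). The co-receptor Tgfbr3 rose by 2.08 (SE 0.26, adjusted p = 0.000382). The BMP target genes Id1 and Id2 fell by 1.95 (SE 0.30, adjusted p = 0.00107) and 2.62 (SE 0.13, adjusted p = 7.94e-06) on the log2 scale. With Acvrl1 they were the 3 lower genes of the list. Smad7 rose by 1.80 (SE 0.27, adjusted p = 0.000961), and Smad6 had a log2 fold change of 0.34 with an adjusted p of 0.445. No direction of pathway activity is read from these genes. Acvrl1 (ALK1), the type I receptor that pairs with endoglin in vessels, had 100 UMIs in Lin-kit+ and 1 in reporter-positive cells, a ratio of 0.102 with an interval of 0.00256 to 0.583 (adjusted p = 0.00418). Its fitted log2 fold change rests on that 1 UMI, at -3.22 without the HSC-Fgd5+ library and -7.77 without Fgd5+, which leaves 0 UMIs. Without the Fgd5+ library, where Id1 stood at 5.52 CPM against 13.8 CPM in HSC-Fgd5+, Id1 fell by 1.32, and without HSC-Fgd5+ by 2.62. Endoglin was thus high where its vascular receptor was at 1 UMI.

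In the other lists calls went both ways. Of the FGD family with Cdc42, 2 of 5 tested genes were higher and 3 lower. Fgd1, with 88 UMIs, rose by 2.65 (SE 0.26, adjusted p = 0.000141) and Fgd3 by 0.83 (SE 0.20, adjusted p = 0.00998). Fgd2, Fgd4 and Cdc42 fell by 0.79, 0.99 and 1.01 (SE 0.15, 0.18 and 0.07). Of the other transglutaminases 1 of 2 tested genes was higher and 1 lower. Tgm1, with 55 UMIs, rose by 2.02 (SE 0.42, adjusted p = 0.0048). F13a1, a subunit of a coagulation factor made by monocytes, fell by 6.16 (SE 0.33, adjusted p = 9.58e-06). It stood at 182 to 184 CPM in the Lin-kit+ libraries and at 5.28 and 0.923 CPM in Fgd5+ and HSC-Fgd5+ cells. Without the Fgd5+ library F13a1 fell by 8.18. Of the sialomucins Cd34, Cd164 and Selplg fell by 0.98, 0.88 and 1.68 (SE 0.14, 0.09 and 0.11), and Podxl, the endothelial relative of Cd34, was the 1 called higher. Of the endothelial and stem cell transcription factors 11 of 14 were higher and 1 lower. Mecom was at 5.16 (SE 0.18), Lmo2 at 3.22 (SE 0.33) and Erg at 2.20 (SE 0.11), and Klf4 fell by 2.84 (SE 0.18). Of the other vascular genes, listed as known in stem cells or platelets, 8 of 10 were higher and 1 lower. Mmrn1 was at 5.96 (SE 0.24), Robo4 at 4.80 (SE 0.35), Vwf at 4.21 (SE 0.17) and Selp at 2.53 (SE 0.15). With scaling by library totals the median of all genes tested moved from 0.07 to 0.60, and Fgd2 and Fgd4 were no longer called. None of the 30 genes named by rule changed direction.

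**Figure D5:**
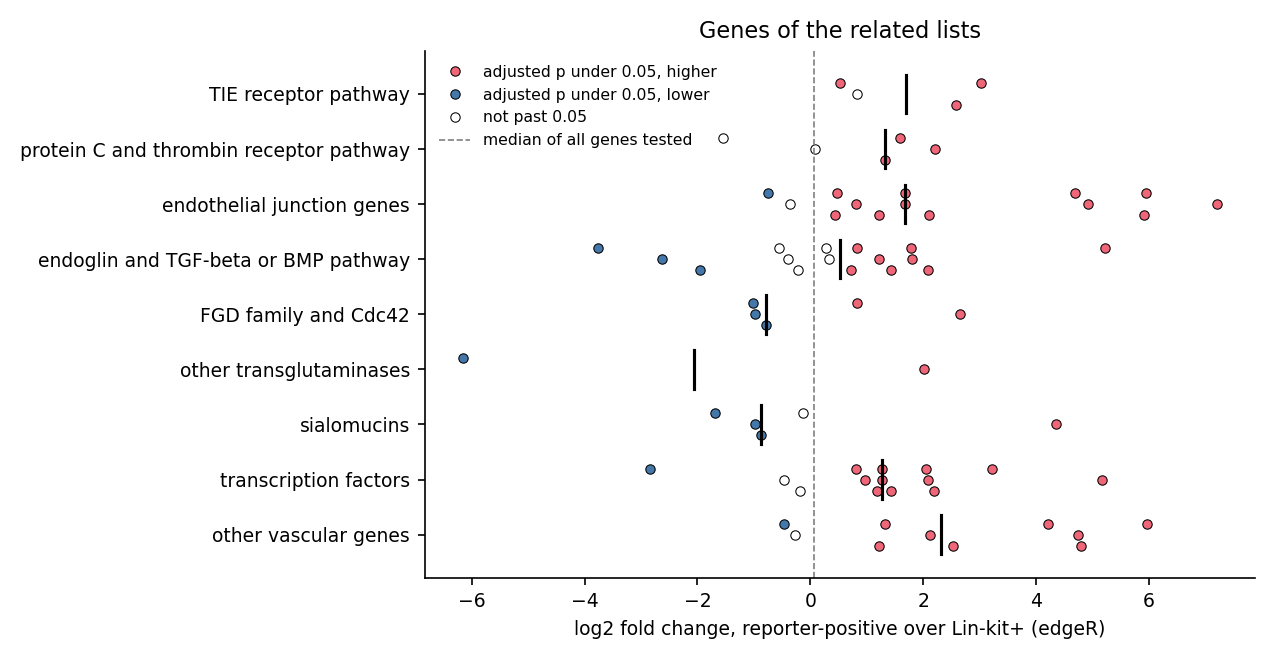
Each point is a tested gene of the 9 further lists, placed by its log2 fold change in reporter-positive over Lin-kit+ libraries (edgeR, scaled by trimmed means); filled points are past an adjusted p of 0.05. Black bars are list medians and the dashed line is the median of all 11991 genes tested. Junction, transcription factor and other vascular genes lie mostly to the right, and sialomucins and the FGD family mostly to the left.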

How the data were processed

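Mouse bone marrow cells were profiled with 10x Chromium Single Cell 3′ v2 chemistry. The deposited table holds the authors' whole-number UMI counts per gene and cell for 5 libraries, not normalized. The submitters' processing notes name mm10, Cell Ranger 1.3 and 2.1 and Seurat 2.3.4 without their roles, and the study's methods say that 2 sequencing runs were combined. Genes, lists and comparisons were chosen with earlier results of these data known.

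Counts were summed per library, 3 Lin-kit+ against 2 reporter-positive, and fitted with edgeR 4.0.16 (quasi-likelihood, trimmed-mean scaling, edgeR's filter on low counts, Benjamini-Hochberg adjusted p of 0.05), which was tested on simulated data. DESeq2 1.42.0, library totals, no filter and leaving out each library were alternatives. From each further list at most 4 called genes with at least 100 UMIs and the largest changes were named. Some genes that the naming rules picked are not reported here. All cells were used unless stated, no doublet caller was run, and intervals are 95% Poisson, binomial or Wilson intervals.

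Cells were clustered with scanpy 1.11.5 and leidenalg 0.10.2 (2000 variable genes without the 10, 20 components, 15 neighbours, resolution 1). A cluster was called X-like with at least 3 markers found in 5% of its cells and 2 times higher than in other cells, with 10 CPM added to both. That addition, and leaving clusters with more markers of another class unnamed, were settled after the clusters were seen.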

Additional observations from a re-analysis of the deposited data

How the results depend on the processing

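Of the 269 alternative values of the 30 named genes of the further lists, 265 kept their direction and their side of the threshold, 4 in 3 genes lost the threshold and 0 changed direction. The 4 were Fgd2 (-0.26) and Fgd4 (-0.45) with library totals, and Fgd3 with DESeq2 (0.74) and without the Fgd5+ library (0.88). With library totals 6586 genes were higher and 1993 lower, against 3921 and 3646. DESeq2 gave 3401 and 3682, and leaving out 1 library gave 2784 to 3917 higher and 3149 to 3751 lower. In the further lists these ranges were 39 to 49 higher and 12 to 15 lower. The bound on Cldn5 was 198-fold without Lin-kit+ c, 377-fold without a, and 198-fold to 598-fold over all libraries left out. Expected co-detection from shares of cells alone, without depth, gave a median ratio of 1.16 in reporter-positive cells and a summed ratio of 2.97 in Lin-kit+ cells. Procr in lymphoid-primed cells was 14.9 CPM at resolution 0.5 and 19.6 CPM at resolution 2, and Emcn 11.7 CPM at resolution 0.5, where no cluster was named megakaryocyte-like. With the 10 genes kept for clustering, megakaryocyte-like cells had Tgm2 at 5.17, Esam at 15.7 and Tie1 at 7.04 CPM, and erythroid-like cells Eng at 38.5 CPM. The cause of these shifts was not tested. No paired analysis was possible because the table's columns carry no replicate numbers that the groups share. Fgd5 and Tek rest on 19 to 44 UMIs in each reporter-positive library, so differences between the gates within their intervals were not detectable at this depth.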

Other observations

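Genes other than the 10 were compared between reporter-positive cells with and without a Cldn5 UMI, in each library, as a description with no test and with genes chosen after their values were seen. Among 1958 genes with at least 20 UMIs in cells with Cldn5, 570 had a ratio above 1 in both libraries and 595 below 1 in both. Gkn3, a gastrokine gene known from arterial endothelium of the brain, stood at 118 CPM in cells with Cldn5 against 23.8 CPM in the others of the Fgd5+ library, and at 160 against 22.1 CPM in the HSC-Fgd5+ library. Ecscr, an endothelial chemotaxis regulator, had ratios of 2.77 and 2.54, Slamf1 (CD150, a stem cell gate marker) 2.94 and 2.37, and the imprinted RNA Meg3 2.32 and 2.65. Ctla2a, a protease inhibitor gene, was lower, with ratios of 0.484 and 0.326. In both libraries together Mecom stood at 285 CPM (228 to 352) in cells with Cldn5 and 174 CPM (164 to 185) without. Of the endothelial markers, Sox18 had 3 UMIs in cells with Cldn5 (9.95 CPM, 2.05 to 29.1) and 5 in the others (0.829 CPM, 0.269 to 1.93), Bmx 2 and 3 UMIs, and Kdr 2 and 44 UMIs (6.64 and 7.29 CPM).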
